A study of Mus musculus with 27 samples.

Results

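Expression of 10 genes of the Toll-like receptor, interleukin-1 and NFkB pathway was read in the mouse esophagus, from the embryo to the adult and in mice lacking Nrf2 or Keap1. The genes were Il1a, Il1b, Il1rn, Tlr1, Tlr2, Tlr3, Tlr4, Myd88, Nfkb1 and Nfkbia, and they are 10 of the 28427 genes named on the array. A gene was taken as every probe on the array that carries its name, 16 probes in all, and its value was the mean over these probes of the log2 ratio of Cy5 to Cy3. Cy5 carried the esophageal RNA and Cy3 a common reference RNA pooled from mouse cell lines. Ratios were normalized within each array, so 0 marks the usual balance of the channels on that array at that intensity, and not equal raw signal. A ratio near 0 can also arise where both channels are near background. Ratios say nothing of which gene is more abundant.

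The study held 27 arrays in 9 groups of 3, each array with RNA of a separate esophagus. Whole esophagi of wild-type (WT) C57BL/6J mice covered 2 embryonic ages, E11.5 and E15.5, the day of birth (P0) and P7, that is, the metaplasia phase in which a simple epithelium becomes stratified and squamous. At P7, whole esophagi of Nrf2-/-, Keap1-/- and Nrf2-/-Keap1-/- mice were taken as well. The maturation phase was read in adults of 8 weeks, WT and Nrf2-/-, and here the sample was the esophageal epithelium and not the whole organ, so age and tissue cannot be told apart between P7 and adult. All knockouts lack the gene in every cell of the animal, on a C57BL/6J background. Nrf2 is a transcription factor that turns on antioxidant genes, and Keap1 holds it in check by marking it for degradation. Keap1-/- pups are known to have a thickened, keratinized esophagus and to die young, and this genotype was sampled at P7 alone.

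Toll-like receptors are membrane proteins that recognize molecules of microbes. Together with the receptor of interleukin-1 they signal through the adaptor Myd88, which ends in the release of NFkB from its inhibitor in the cytoplasm and in transcription of inflammatory genes. Stratified epithelia such as the epidermis and the esophagus hold interleukin-1 alpha and its antagonist in their keratinocytes, while interleukin-1 beta comes largely from myeloid cells.

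Sequences are given for Il1a, Tlr2 and Nfkbia, since the widest changes of a ligand, a receptor and an inhibitor below rest on them. The 60-base probes that read these genes lie in their coding regions, and their positions in the mm9 build are chr2:129128725-129130459, chr3:83640344-83640403 and chr12:56590945-56591440, all on the minus strand. The spans of the first and the last are longer than the probe because the probe crosses an exon junction.
Il1a probe A_51_P438283: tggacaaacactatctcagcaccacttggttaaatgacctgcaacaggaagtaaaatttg
Tlr2 probe A_51_P452629: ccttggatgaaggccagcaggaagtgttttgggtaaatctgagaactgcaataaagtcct
Nfkbia probe A_51_P295192: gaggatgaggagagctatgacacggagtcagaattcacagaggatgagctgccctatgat

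The 250 bases before the transcription start were read from RefSeq (GRCm38.p6) for the 8 members listed there, in 11 windows, and searched on both strands. The kappaB consensus, the sequence NFkB binds, was found in 3 of the 11 windows, those of Tlr2, Tlr3 and Nfkbia, and in 7.25% of all 32851 windows. Capitals mark the match in the Tlr2 window, chr3:83841609-83841858 on the minus strand, where 2 overlapping matches run from 173 to 163 bases before the start. In the Nfkbia window, chr12:55492648-55492897 on the minus strand, the match runs from 29 to 20 bases before the start. The core of the antioxidant response element that Nrf2 binds, TGACNNNGC, was present in 1 of the 11 windows, that of Nfkbia, and in 10.2% of all windows. A match describes letters and not a bound site.
Tlr2 window: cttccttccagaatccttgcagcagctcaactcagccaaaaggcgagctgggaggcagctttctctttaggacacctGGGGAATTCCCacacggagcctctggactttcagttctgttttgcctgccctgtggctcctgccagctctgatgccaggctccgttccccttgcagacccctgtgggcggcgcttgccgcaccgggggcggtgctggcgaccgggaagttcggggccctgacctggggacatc
Nfkbia window: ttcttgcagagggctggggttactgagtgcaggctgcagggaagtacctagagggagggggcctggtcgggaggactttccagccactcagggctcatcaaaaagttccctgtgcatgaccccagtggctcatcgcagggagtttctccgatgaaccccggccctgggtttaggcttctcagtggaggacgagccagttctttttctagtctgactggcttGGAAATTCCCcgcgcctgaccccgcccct

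On the 27 arrays, 58.9% to 69.3% of Cy5 spots were well above background, and no member spot was saturated. The signal of Nfe2l2, the gene of Nrf2, matched the labels in every knockout array, with log2 ratios of -3.92 to -3.82 in Nrf2-/- and -4.14 to -4.08 in Nrf2-/-Keap1-/- against -0.55 to 0.00 in WT at P7. The probe of Keap1 did not separate Keap1-/- (-0.27 to 0.64) from WT (0.42 to 1.00) at P7, while Nrf2-/-Keap1-/- (-0.50 to -0.19) lay below WT. Whether the probe lies in the deleted part was not given in the sources used here. Nqo1, an enzyme under the control of Nrf2, ranged from 3.95 to 4.18 in Keap1-/- and from -1.96 to 0.45 in WT at P7. Among the embryos, 2 arrays stood apart from their labels over 19841 genes. The array labelled WT-E11.5 replicate 3 correlated at 0.981 and 0.976 with WT-E15.5 replicates 2 and 3 and at 0.831 and 0.774 with its own group. The array labelled WT-E15.5 replicate 1 correlated at 0.957 and 0.928 with WT-E11.5 replicates 1 and 2 and at 0.803 and 0.812 with its own group. Counts of called genes that use the embryos are therefore given with and without both arrays.

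Across the 9 groups, the members spanned from 0.58 on the log2 scale for Nfkb1 to 4.24 for Il1rn between the lowest and the highest group mean. The lowest mean was in an embryonic group for 8 members, all but Tlr1 and Tlr2, whose lowest means were in adults. The highest was in adult Nrf2-/- epithelium for Tlr3, Tlr4, Il1a, Il1rn and Myd88, in WT at P0 for Tlr1 and Tlr2, in Keap1-/- at P7 for Il1b and Nfkbia, and in WT at P7 for Nfkb1. Groups next to each other in this order mostly overlapped, in 5 of 8 neighbouring pairs for Myd88 and in all 8 for Il1b and Nfkb1.

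**Figure D1:**
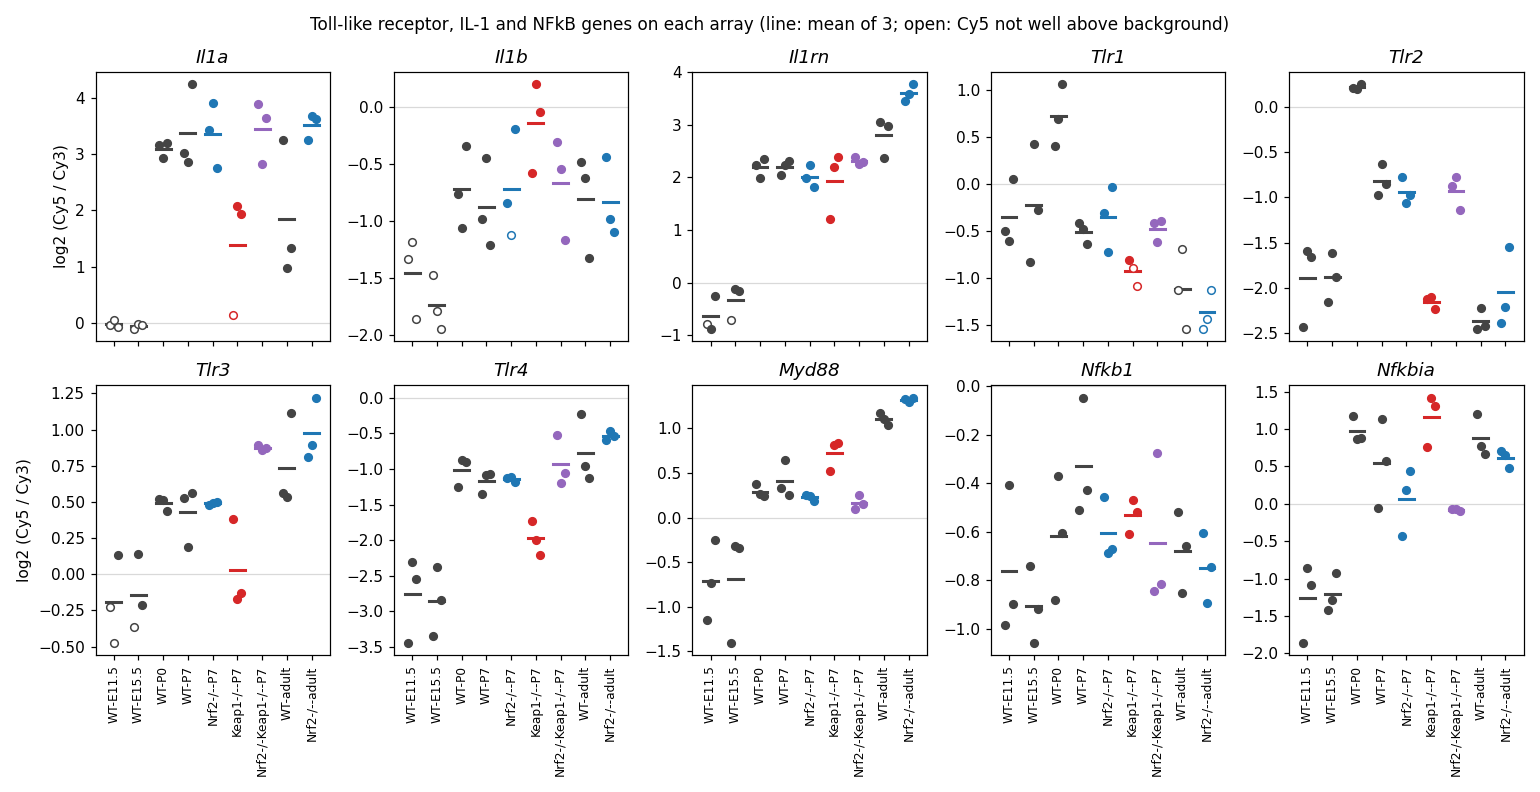
The log2 ratio of Cy5 to Cy3 (vertical axis) is plotted for each of the 10 members in each of the 27 arrays, by group (horizontal axis), with a line at the mean of the 3 arrays of a group and open points where Cy5 was not well above background. Il1a lies near 0 in all 6 embryonic arrays and between 2.86 and 4.24 in WT at P7.

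Between E15.5 and P0, 9 of the 10 members rose and none fell, while 19.7% of the 19853 genes tested were called and 11.2% rose. The median change was 1.43 on the log2 scale over the members and -0.01 over all genes. For 8 members the arrays of the 2 ages did not overlap, as for 43.8% of all genes. Nfkb1 alone was not called. Il1a and Il1b were not well above background in any embryonic array and entered this fit only through their postnatal arrays. Their rise was thus favoured in advance, and both count among the members called and in the median. Here and below, a gene is called at an adjusted p of 0.05 or lower in limma's moderated test over all genes.

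Il1a, the ligand held in keratinocytes, had log2 ratios of -0.03, 0.05 and -0.07 at E11.5 and of -0.11, -0.02 and -0.04 at E15.5, where neither of its probes was well above background in Cy5. It read 3.15, 2.93 and 3.20 at P0 and 3.01, 2.86 and 4.24 at P7. Both ages after birth lay far above both embryonic ages, with no overlap. Against the lowest signal well above background, Il1a was at least 5.2-fold and at least 7.66-fold higher at P0 than at E15.5 by its 2 probes. These bounds come from single channels and are open to dye bias because no dyes were swapped. Limma's adjusted p of 7.64e-05 belongs to the log2 ratio, a change of 3.145 from arrays near background, and does not test the bounds. Il1a entered that fit only through its postnatal arrays. From E11.5 to P7 the same bounds were 6.55-fold and 9.8-fold. The reference itself held little Il1a, well above background on 0 of 27 arrays for one probe and on 4 for the other.

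Il1rn encodes the secreted antagonist that occupies the interleukin-1 receptor without signalling. It read -0.78, -0.88 and -0.24 at E11.5, -0.71, -0.12 and -0.15 at E15.5, 2.24, 1.98 and 2.34 at P0, and 2.04, 2.23 and 2.32 at P7. The embryonic arrays were all below 0 and the postnatal arrays all near 2. Probe A_52_P431159, well above background in 2 of 3 arrays at E15.5 and 3 of 3 at P0, rose by 3.50 ± 0.336 on the log2 scale (SE, adjusted p = 8.85e-05 over 28978 probes). The other probe, A_51_P307166, was not well above background in any embryonic array, and was at least 2.76-fold higher at P0. The change of the mean over both, 2.51 (adjusted p = 3.57e-05), thus includes a probe with a bound alone.

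Il1b is the ligand released by myeloid cells. It read -1.48, -1.79 and -1.95 at E15.5, not well above background in any of these arrays, and -0.77, -1.07 and -0.34 at P0. The groups did not overlap. In Cy5 alone, the signal of Il1b was 1.89-fold higher at P0. That is the observed difference, with the E15.5 signal taken as it stood, and not a lower bound. Limma's adjusted p of 0.0198 belongs to the log2 ratio, a change of 1.015 from arrays near background, and does not test that Cy5 difference. Like Il1a, Il1b entered the fit only through its postnatal arrays.

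Tlr2, which recognizes bacterial lipoproteins together with Tlr1 or Tlr6, was at its highest at birth. Its log2 ratios were -2.43, -1.59 and -1.65 at E11.5, -2.15, -1.61 and -1.88 at E15.5, 0.21, 0.20 and 0.25 at P0, and -0.97, -0.63 and -0.85 at P7. P0 stood above all other groups without overlap. Tlr2 rose by 2.10 ± 0.216 (SE) from E15.5 to P0, or 4.29-fold (adjusted p = 0.000162), and fell by 1.03 ± 0.216 to P7, or 2.05-fold (adjusted p = 0.0337).

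Tlr4, the receptor of lipopolysaccharide, rose at the same time and stayed up. It read -3.44, -2.30 and -2.54 at E11.5, -3.35, -2.38 and -2.83 at E15.5, -1.25, -0.87 and -0.90 at P0, and -1.36, -1.09 and -1.07 at P7. The embryonic and postnatal arrays did not overlap. The rise to P0 was 1.85 ± 0.301 (SE), or 3.59-fold (adjusted p = 0.00245), and the difference of P7 from P0 was -0.16 with a 95% interval of -0.83 to 0.50.

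Tlr3, an endosomal receptor of double-stranded RNA, rose by 0.64 ± 0.179 (SE) from E15.5 to P0 (adjusted p = 0.0305), from -0.37, 0.14 and -0.21 to 0.52, 0.51 and 0.44. Tlr1, the partner of Tlr2, rose by 0.94 ± 0.296 (adjusted p = 0.0471), from -0.84, 0.43 and -0.28 to 0.40, 0.69 and 1.06, and here the groups overlapped. At P7 Tlr1 was back at -0.42, -0.48 and -0.64, below P0 without overlap, a difference of -1.23 that was not called (adjusted p = 0.0626).

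Myd88, the adaptor shared by most Toll-like receptors and the interleukin-1 receptor, rose by 0.98 ± 0.293 (SE) from E15.5 to P0, or 1.97-fold (adjusted p = 0.0395). It read -1.40, -0.31 and -0.34 at E15.5 and 0.37, 0.26 and 0.24 at P0. The first of the E15.5 arrays, well below the others, is replicate 1, which stood apart from its label. Without it the rise was 0.62, the lowest with any single array left out. Nfkbia, the inhibitor that keeps NFkB in the cytoplasm and is itself an NFkB target, went from -1.42, -1.29 and -0.92 to 1.17, 0.87 and 0.88. That is a rise of 2.19 ± 0.313 (SE), or 4.55-fold (adjusted p = 0.0012), with no overlap. Nfkb1, which encodes the p50 subunit of NFkB and its precursor, read -0.74, -1.06 and -0.92 at E15.5 and -0.88, -0.37 and -0.61 at P0, a difference of 0.29 with a 95% interval of -0.14 to 0.72.

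From P0 to P7, Tlr2 was the 1 member of 10 that was called, beside 2.42% of all genes called and 0.937% called lower. That call was lost without any one of the 3 WT-P0 arrays, without WT-P7 replicate 1 or 3, and without WT-E15.5 replicate 3, with adjusted p from 0.0556 to 0.136 for Tlr2. From E11.5 to P7, 7 members were called, all higher, beside 30.1% of all genes called and 16.7% called higher: Il1a and Il1rn, Tlr2 (1.08), Tlr3 (0.62), Tlr4 (1.59), Myd88 (1.12) and Nfkbia (1.82 on the log2 scale). At E11.5 a probe of Tlr3, A_52_P85174, stayed near background on each array, so the value of Tlr3 rests in part on signal near background. Among the 4 ages, 9 members differed by limma's F-test, all but Nfkb1 (adjusted p = 0.145), beside 30.1% of genes. Between the embryonic ages limma called 0 members and 0% of all genes, with 0 members and 326 genes at an unadjusted p under 0.05, and SAM called 0 members.

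With both doubted embryonic arrays left out, 8 members were still called from E15.5 to P0, all but Nfkb1 and Tlr1, which read 0.64 (adjusted p = 0.0839). In this fit 19.5% of all genes were called between these ages. Between E11.5 and E15.5 the same fit called 2 members and 2690 of 19514 genes: Il1rn was higher at E15.5 by 0.70 (adjusted p = 0.0157), with 1 of its probes not well above background at either age, and Myd88 by 0.62 (adjusted p = 0.0445). From P0 to P7 it called Tlr2 (-1.03, adjusted p = 0.0181) and Tlr1 (-1.23, adjusted p = 0.00994), beside 5.64% of all genes. From E11.5 to P7 it called the same 7 members, all higher, beside 40.4% of all genes, and among the 4 ages 9. Without WT-P0 replicate 1 or 3, 5 members were called from E15.5 to P0. The calls of Il1a, Il1rn, Tlr2, Tlr4 and Nfkbia held in every setting tried.

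**Figure D2:**
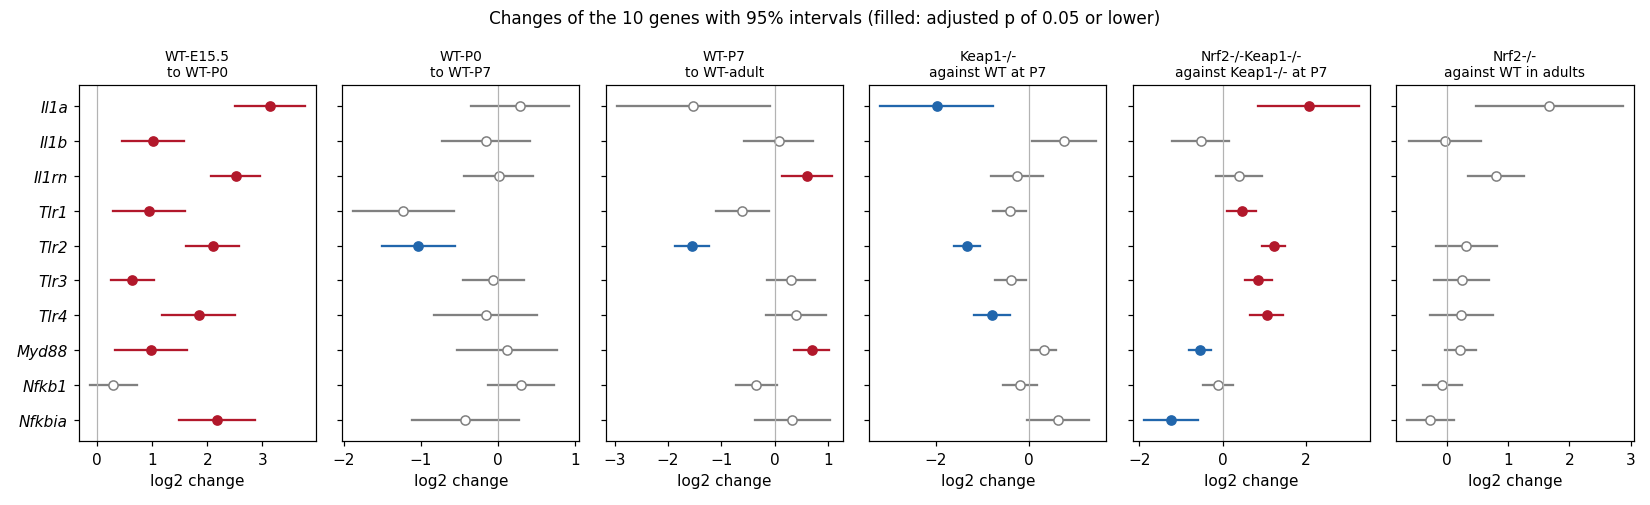
The log2 change of each of the 10 members (vertical axis, genes) is plotted with its 95% interval (horizontal axis, log2) for 6 comparisons, with filled points where limma called the gene. In the panel from E15.5 to P0, 9 of 10 points are filled and to the right of 0, and in the panel of Keap1-/- against WT, 3 are filled and to the left.

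In these whole organs, fewer cells of a type and less RNA per cell cannot be told apart. Markers of other cells moved with the members at birth. Of 12 macrophage markers, 7 rose from E15.5 to P0, and their mean log2 ratio went from -0.21 to 0.84 at E15.5 to 1.54 to 1.80 at P0. Itgam, an integrin of myeloid cells, was not well above background in any embryonic array. Of 10 markers of stratified squamous epithelium, 3 rose, and their mean went from 0.99 to 2.66 at E15.5 to 3.40 to 3.60 at P0, with Ivl, the cornified envelope protein involucrin, not well above background in the embryos. Skeletal muscle markers rose in 5 of 7 cases, with a median change of 2.47, while 1 of 9 leukocyte markers was called and 0 of 7 lymphocyte markers. Of 5 airway epithelial markers tested, 2 rose and 1 fell. The mean of all 6 was 1.23 to 2.21 at E15.5, 1.63 to 2.78 at P0 and 0.225 to 0.679 in WT at P7. Nkx2-1 of this list was well above background at P0 and in no other group. From P0 to P7, 0 of the 5 were called, with a median change of -2.27. Without the doubted arrays 6 macrophage, 3 squamous, 6 skeletal muscle and 0 airway markers rose, and 1 airway marker fell. The E15.5 means were then 0.73 to 0.84 for macrophages, 2.64 to 2.66 for squamous epithelium and 2.01 to 2.21 for airway epithelium. The part of these cells in the rise of the members to P0, or in the fall of Tlr2 from P0 to P7, was not tested.

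The maturation phase was read from WT at P7 to WT adults, and the 10 members split: 2 rose, 1 fell and 7 were not called. In all, 42.9% of 18121 genes were called in this comparison, 19.9% higher and 23% lower, a larger share than among the members. Tlr2 went from -0.97, -0.63 and -0.85 to -2.45, -2.23 and -2.42, with no overlap, a fall of 1.55 ± 0.138 on the log2 scale (SE), or 2.93-fold (adjusted p = 0.000178). The adult arrays lay near the lowest embryonic ones.

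Myd88 rose by 0.70 ± 0.14 (SE), or 1.62-fold (adjusted p = 0.00601), from 0.33, 0.64 and 0.25 to 1.17, 1.1 and 1.04, with no overlap. Il1rn rose by 0.61 (adjusted p = 0.0414), from 2.04, 2.23 and 2.32 to 3.05, 2.37 and 2.98, and this call was lost in 15 of 23 settings and turned in 1 more. Within scan 1, which held 3 WT arrays of P7 and 2 of adults, the difference of Tlr2 was -1.52, that of Myd88 0.73 and that of Il1rn 0.52. With the scan as a block, limma no longer called Il1rn (adjusted p = 0.113), while Tlr2 (adjusted p = 0.00109) and Myd88 (adjusted p = 0.0142) were still called. Tlr1 was not well above background in any adult array, and its difference from P7 was not called (adjusted p = 0.0527). Il1a read 3.24, 0.97 and 1.33 in adults, and its difference of -1.52 from P7 was not called (adjusted p = 0.0836). The first adult array lay within the P7 range.

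Tlr3 (0.31), Tlr4 (0.40), Il1b (0.07), Nfkb1 (-0.35) and Nfkbia (0.33 on the log2 scale) were not called either. As the sample changed from whole organ to epithelium, fibroblast markers were lower in 8 of 8 cases, skeletal muscle markers in 6 of 7 and macrophage markers in 8 of 12, while 1 macrophage marker was higher. Markers of dendritic and Langerhans cells went the other way, with 5 of 7 higher and 0 lower and a median change of 1.61. The mean of the macrophage markers was 1.5 to 1.74 at P7 and 0.11 to 0.93 in adults. Their part in the fall of Tlr2 was not tested.

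At P7, no member was called between Nrf2-/- and WT. Limma called 0 of 10 members and 0.0156% of all genes, with 0 members at an unadjusted p under 0.05, and SAM called 0. The differences ran from -0.49 for Nfkbia to 0.16 for Il1b, and the interval of Il1a was as wide as -1.22 to 1.20.

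In Keap1-/- esophagi 3 of the 10 members were lower than in WT and none was higher, beside 33.3% of all genes called and 18% called lower, so the share of members called was not above that of all genes. Tlr2 read -2.13, -2.09 and -2.23 in Keap1-/- and -0.97, -0.63 and -0.85 in WT. The groups were far apart, and Tlr2 fell by 1.34 ± 0.126 (SE), or 2.52-fold (adjusted p = 3.06e-05). Tlr4 went from -1.36, -1.09 and -1.07 to -1.72, -1.99 and -2.20, a fall of 0.80 ± 0.176, or 1.74-fold (adjusted p = 0.00568), with no overlap.

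Il1a read 3.01, 2.86 and 4.24 in WT and 0.13, 2.08 and 1.94 in Keap1-/-, all below WT. It fell by 1.98 ± 0.548 on the log2 scale (SE), or 3.96-fold (adjusted p = 0.0179). The first Keap1-/- array was near the embryonic level, with neither probe well above background. Without it the fall was 1.36 (adjusted p = 0.0453), and without WT-P7 replicate 3, the brightest WT array for Il1a, the call was lost (adjusted p = 0.0665). Cy3 of this probe pair was also lower on the Keap1-/- arrays, at 35.3 to 37.1 for A_51_P438283 against 59.3 to 67.9 in WT at P7.

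The other members were not called between Keap1-/- and WT. Tlr1 differed by -0.42 (adjusted p = 0.0647) and Tlr3 by -0.40 (adjusted p = 0.0561), while Il1b differed by 0.74 (adjusted p = 0.0889), Nfkbia by 0.62 (adjusted p = 0.134) and Myd88 by 0.32 (adjusted p = 0.0675). Il1rn differed by -0.26 with a 95% interval of -0.82 to 0.29, and Nfkb1 by -0.20 with one of -0.57 to 0.16. Receptors and Il1a thus had negative values, and Il1b, Myd88 and Nfkbia positive ones. Without WT-P7 replicate 2, 7 members were called, with Tlr3 lower and Il1b, Nfkbia and Myd88 higher, and without Keap1-/- replicate 1, 6 were called. The shares of all genes called in these fits are not given here.

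Among the P7 arrays, the Keap1-/- arrays had a slide, a scan and a software version of their own, so genotype and these batches cannot be told apart. The median Cy3 signal of an array, that of the common reference, was 115 to 147 on the Keap1-/- arrays and 223 to 231 in WT at P7, while the median Cy5 signal was 88.6 to 106 and 88.5 to 113. For Tlr2, Cy5 was 354 to 470 in Keap1-/- against 775 to 1070 in WT, and Cy3 3300 to 4700 against 6400 to 6570. For Tlr4, Cy5 was 295 to 352 against 298 to 480, and Cy3 2330 to 3410 against 3280 to 3430. The part of the lower reference signal in these differences was not tested. Median centring of the arrays in place of loess gave a median over all genes of -0.16 in place of -0.01 and turned the split of called genes, with 66.1% of them higher against 46.1%. Under it Nfkbia (1.20, adjusted p = 0.0152) and Myd88 (0.72, adjusted p = 0.00601) were called higher and Tlr4 was not called (-0.43, adjusted p = 0.0924), while Tlr2 and Il1a remained lower and Tlr3 (-0.53, adjusted p = 0.00481) was called lower too.

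Markers of several cell types differed in Keap1-/- esophagi too. Of 12 macrophage markers, 9 were lower than in WT, and their mean was 0.58 to 1.03 against 1.5 to 1.74. Of 8 fibroblast markers, 6 were lower, and of 6 smooth muscle markers, 5 were lower and 1 higher, with a median change of -1.17. Of 9 leukocyte markers 2 were lower and 0 higher, and their means overlapped, at -2.40 to -1.78 against -1.97 to -1.79 in WT. Of 7 neutrophil markers tested, 2 were lower and 1 higher, and the mean of all 8 was 0.29 to 0.87 against 1.13 to 2.28, with Elane, Csf3r and Cxcr2 not well above background in WT. Of 10 squamous epithelial markers, 2 were higher and 3 lower. Their part in the fall of Tlr2, Tlr4 and Il1a was not tested.

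When Nrf2 was lost together with Keap1, no member was called against WT. Limma called 0 of 10 members between Nrf2-/-Keap1-/- and WT and 0.458% of all genes, with 1 member, Tlr3 (0.45), at an unadjusted p under 0.05, and SAM called 0. The difference of Tlr2 was -0.11 with a 95% interval of -0.39 to 0.17, and that of Tlr4 was 0.25 with one of -0.14 to 0.64. Il1a differed by 0.08, with a wide interval of -1.13 to 1.29.

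Against Keap1-/-, 7 of the 10 members were called in Nrf2-/-Keap1-/- esophagi, 5 higher and 2 lower, beside 33.4% of all genes, 18.3% higher and 15.1% lower. The comparison with WT and this one share the Nrf2-/-Keap1-/- arrays. The Keap1-/- arrays, with a slide, scan and software version of their own, serve in both comparisons of that genotype. Tlr2 read -0.87, -0.77 and -1.13 in Nrf2-/-Keap1-/-, or 2.34-fold above Keap1-/- (adjusted p = 6.12e-05). Tlr4 read -0.52, -1.20 and -1.05, or 2.07-fold above (adjusted p = 0.00127). Il1a read 3.89, 2.82 and 3.63, or 4.18-fold above (adjusted p = 0.0147). None of these 3 genes overlapped between the genotypes.

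Tlr3 rose by 0.85 ± 0.146 (SE), from 0.38, -0.17 and -0.13 to 0.90, 0.86 and 0.87 (adjusted p = 0.00149). Tlr1 rose by 0.46 (adjusted p = 0.048), a call that the replicate number as a block took away (adjusted p = 0.0563). Nfkbia and Myd88 went the other way, with no overlap. Nfkbia read 0.77, 1.42 and 1.31 in Keap1-/- and -0.07, -0.07 and -0.10 in Nrf2-/-Keap1-/-, a fall of 1.24 ± 0.296, or 2.37-fold (adjusted p = 0.00863). Myd88 fell by 0.56 ± 0.121, from 0.52, 0.81 and 0.84 to 0.09, 0.25 and 0.15 (adjusted p = 0.00555). Among the 4 genotypes, 6 members differed by the F-test, namely Tlr2, Tlr3, Tlr4, Il1a, Nfkbia and Myd88, beside 33.8% of genes, and 3 did without Keap1-/- replicate 3.

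Whether the effect of losing Keap1 depended on Nrf2 was tested by the difference of Keap1-/- from WT minus that of Nrf2-/-Keap1-/- from Nrf2-/-. The Keap1-/- arrays enter this contrast with their own slide, scan and software version. A shift between these batches therefore cannot be told apart from a dependence on Nrf2. It was called for 3 of 10 members, beside 15.1% of all genes called and 7.97% called lower: Tlr2 (-1.35 ± 0.178, SE, adjusted p = 0.000789), Tlr4 (-1.01 ± 0.248, adjusted p = 0.0203) and Tlr3 (-0.79 ± 0.207, adjusted p = 0.0274). For Il1a it was -2.07 and not called (adjusted p = 0.097). Between Nrf2-/-Keap1-/- and Nrf2-/-, limma called 0 members and 0% of genes, with 1 member, Tlr3, and 1206 genes at an unadjusted p under 0.05. SAM was not run on these contrasts. Without Keap1-/- replicate 3 the dependence on Nrf2 was called for 1 member, Tlr2.

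In adult epithelium, Tlr1 was not well above background and was not tested, and limma called 0 of the other 9 members between Nrf2-/- and WT, beside 0.446% of all genes. At an unadjusted p under 0.05 there were 2, Il1a and Il1rn, and SAM called 0. Il1a read 3.25, 3.68 and 3.62 in Nrf2-/- and 3.24, 0.97 and 1.33 in WT, where replicate 1 was close to the Nrf2-/- arrays. The difference was 1.67 and not called (adjusted p = 0.194), and without that array it was 2.37 and called (adjusted p = 0.0118). Il1rn read 3.45, 3.59 and 3.77 in Nrf2-/- and 3.05, 2.37 and 2.98 in WT, a difference of 0.80 (adjusted p = 0.132) with no overlap.

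The adult arrays were scanned in more than 1 scan and with both software versions. Within scan 2, with 1 WT and 2 Nrf2-/- arrays, Il1a differed by 2.14 and Il1rn by 0.54, and within the newer software version, with 1 and 3 arrays, by 2.19 and 0.62. Macrophage markers averaged 0.95 to 2.02 in Nrf2-/- adults and 0.11 to 0.93 in WT adults, and skeletal muscle markers 2.16 to 3.32 against 1.00 to 2.22, and their part in these differences was not tested. The effect of Nrf2 loss in adults minus that at P7 was called for 0 of 10 members and 0.0974% of genes by limma, with 2 members at an unadjusted p under 0.05, Il1rn (0.98, adjusted p = 0.216) and Myd88 (0.40, adjusted p = 0.368). SAM was not run on that contrast.

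The 4 probes of Nfkb1 did not move together, which the mean over them does not show. Over the 27 arrays, which share one reference, probe A_51_P283759 correlated with the other 3 at -0.0968, -0.18 and -0.453, while those correlated with each other at 0.246 to 0.724. In Keap1-/- esophagi A_51_P283759 was lower than in WT by a log2 change of -0.90 (adjusted p = 0.00336, over 27988 probes), A_52_P32733 read -0.56 (adjusted p = 0.0671), A_52_P569539 -0.02 (adjusted p = 0.965) and A_52_P582969 0.67 (adjusted p = 0.083). The Cy3 signal of A_52_P582969 was 636 to 903 on the Keap1-/- arrays against 1620 to 1740 in WT, with Cy5 at 266 to 465 against 233 to 285. For A_51_P283759 Cy3 was 2780 to 3710 against 3240 to 3610, and Cy5 692 to 837 against 648 to 1060. The part of the reference channel in the difference between these probes was not tested.

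Between Keap1-/- and Nrf2-/-Keap1-/- 2 of these probes were called, in opposite directions. A_51_P283759 was higher in Nrf2-/-Keap1-/- by 0.71 (adjusted p = 0.0119), and A_52_P582969 differed by -0.88 (adjusted p = 0.0289). From P7 to adult A_51_P283759 differed by -0.77 (adjusted p = 0.0075) and the others by -0.33 to -0.01, none of them called. From E11.5 to P7 A_52_P32733 was the 1 probe called, with 0.83 (adjusted p = 0.0364). The probes of the other 3 members with several were close to each other, with correlations over the 27 arrays of 0.944 for Tlr3, 0.973 for Il1a and 0.827 for Il1rn.

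**Figure D3:**
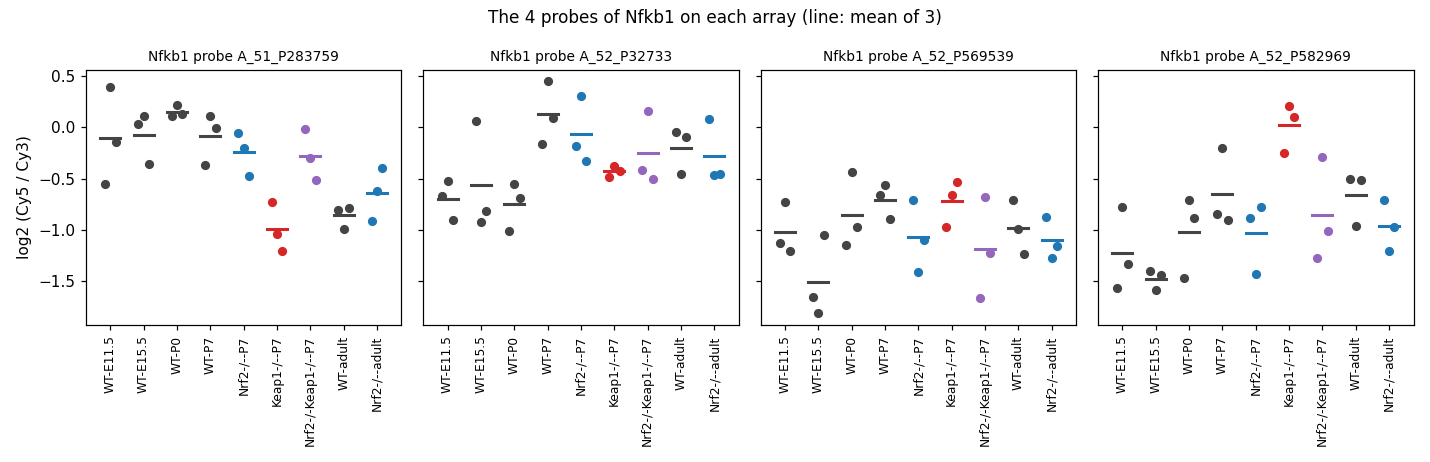
The log2 ratio of Cy5 to Cy3 (vertical axis) of each of the 4 probes of Nfkb1 is plotted in every array by group (horizontal axis), with a line at the mean of 3 arrays. Probe A_51_P283759 is low in the Keap1-/- group (mean -0.99), where A_52_P582969 has its highest mean (0.02).

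The rest of the pathway was read from 7 lists of 85 genes, 82 of them with a probe. From E15.5 to P0, 36 of the 69 genes tested rose and 0 fell, or 52.2% called beside 19.7% of all genes. Without the doubted arrays 35 rose and 2 fell, or 53.6% beside 19.5%. The share was highest among the other subunits and inhibitors of NFkB, with 8 of 10, followed by interleukin-1 family receptors, with 5 of 7, and the other Toll-like receptors and their co-receptors, with 5 of 8. Of the adaptors and kinases 6 of 18 rose. The widest changes were of Il1r2, a decoy receptor of interleukin-1 (4.28), Il18r1, a chain of the interleukin-18 receptor (3.98), Tnfaip3, an enzyme that limits NFkB signalling (2.87), Cd14, the co-receptor of Tlr4 (2.79), the alarmin Il33 (2.75) and the inflammasome adaptor Pycard (2.65 on the log2 scale). Il1r2 and Il18r1 averaged 0.15 and -0.03 at E15.5. Ratios near 0 can arise near background, so the size of both changes is uncertain.

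From P0 to P7, 4 of 69 rose and 4 fell, or 11.6% beside 2.42% of all genes, and without the doubted arrays 5 rose and 6 fell, or 15.9% beside 5.64%. Cd14 (-2.34), Il18r1 (-2.06) and Lbp, which hands lipopolysaccharide to Cd14 (-1.04), fell as Tlr2 did. The ligands Il18 (1.73) and Il1f6 (1.58) rose, and so did Il1f5 (1.71), the antagonist of the interleukin-36 receptor. From E11.5 to P7, 31 of 69 rose and 0 fell, or 44.9% beside 30.1% of all genes, led by Il1r2 (4.64), Pycard (3.73) and Il33 (3.18). The mean of Il1r2 at E11.5 was 0.02, so the size of its change is again uncertain. Without the doubted arrays 31 rose and 1 fell, or 46.4% beside 40.4%. From P7 to adult epithelium, 19 of 67 rose and 10 fell, or 43.3%, a share close to the 42.9% of all genes. All 7 of the other interleukin-1 family ligands, a list that includes the antagonist Il1f5, were among those that rose, with a median of 2.97 against 0.01 over all genes. Of these 7, 5 had enough Cy5 signal to be tested among the 12 arrays up to P7. The others entered the fit with adults only through adult arrays, so their rise was favoured in advance and its size is uncertain. Il1f9, an interleukin-36 of keratinocytes, rose by 4.86, Il1f8 by 4.59, Il18 by 3.62, and Casp1, the protease that matures interleukin-1 beta and interleukin-18, by 2.65.

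In Keap1-/- esophagi, 13 of 70 were higher than in WT and 15 lower, or 40% beside 33.3% of all genes. The other Toll-like receptors and co-receptors had 4 of 8 lower and 0 higher, as Tlr2 and Tlr4 were, and the interleukin-1 family receptors 3 of 7 lower and 0 higher. The ligands had 2 of 6 higher and the inflammasome genes 2 of 6 higher, with 0 lower in both. Of the ligands, 5 had enough Cy5 signal to be tested among the WT ages up to P7. A further ligand passed the filter here only with the help of knockout arrays, so a call of it as higher could be favoured in advance. The remaining lists went both ways. Of 15 NFkB target genes, 4 were higher and 5 lower. Of 18 adaptors and kinases, 4 were higher and 1 lower, and of 10 other subunits and inhibitors of NFkB, 1 was higher and 2 lower. Il1f9 (3.99) and Casp1 (3.11) were higher, and Il1r2 (-2.25), the flagellin receptor Tlr5 (-2.22), Il18r1 (-2.12) and Ly86, the partner of the Toll-like protein Cd180 (-1.78), were lower. Between Nrf2-/-Keap1-/- and Keap1-/-, a comparison that shares the Keap1-/- arrays with this one, 17 of 70 were higher and 18 lower, or 50% beside 33.4% of all genes. The mean log2 ratio of Il1f9 was 0.38 in WT, 4.37 in Keap1-/- and 0.35 in Nrf2-/-Keap1-/-, that of Casp1 -1.24, 1.86 and -1.19, and that of Tlr5 1.82, -0.40 and 1.59. Ratios as near 0 as those of Il1f9 in WT and Nrf2-/-Keap1-/- can arise near background, so the size of its changes is uncertain. Of the 70 genes, 0 were called by limma in Nrf2-/- at P7, in Nrf2-/-Keap1-/- against WT or in Nrf2-/- adults.

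**Figure D4:**
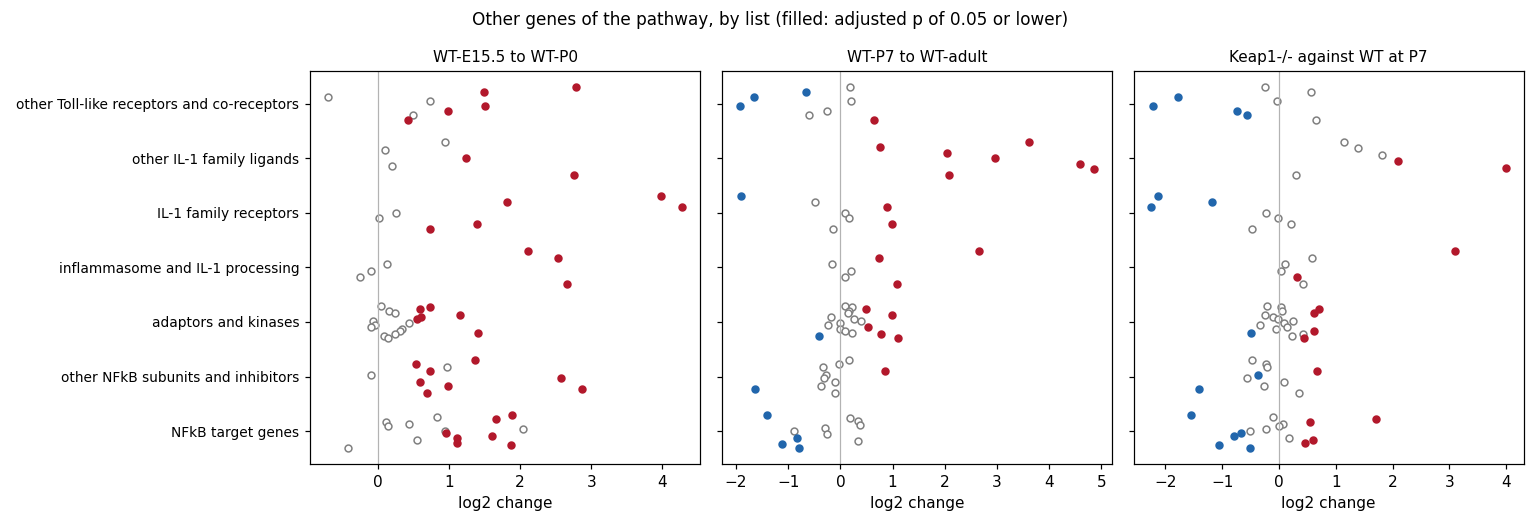
The log2 change (horizontal axis) of each tested gene in 7 pathway lists (vertical axis) is plotted from E15.5 to P0, from P7 to adult and for Keap1-/- against WT at P7, with filled points where limma called the gene. From E15.5 to P0 all 36 called genes lie to the right of 0, and in Keap1-/- 13 lie to the right and 15 to the left.

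The genes with the pattern most like each member were sought among 18176 genes by Pearson's correlation over the 27 arrays, which fall into 9 groups and share one reference. Myd88 came closest to Zbtb7b (0.979), Ostm1 (0.978) and Sema4a (0.978), and Il1rn to a probe with no gene name (0.979), Tprg (0.977) and Syt8 (0.977). Tlr4 was closest to Ubxn2a and Fam110c (both 0.947) and Stxbp3 (0.939), and Tlr2 to Kbtbd11 and Ifi209 (both 0.945) and Noxo1 (0.939). For Il1a they were Sowahb (0.946), Dusp1 (0.917) and Hbegf (0.909), for Tlr1 Gcnt1 (0.946) and Slc12a2 (0.899), and for Nfkbia Cstb (0.932), Sidt2 (0.919) and Stap2 (0.916). Tlr3 was closest to Smpdl3a (0.907), Lmbrd1 (0.902) and Alox5 (0.901). The lowest of these values belonged to Nfkb1 (0.83 at most) and to Il1b, with Gch1 (0.798), Zc3h12a (0.791) and Arhgap10 (0.788).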

How the data were processed

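RNA of individual esophagi (Cy5) and a common mouse reference (Cy3) was hybridized to Agilent arrays of 41174 probes, 65.9% of them named by a RefSeq accession. The authors deposited scanner files with the mean intensity and local background intensity of every spot from Agilent Feature Extraction (version 9.1 per the labels, 10.5.1.1 and 10.7.3.1 per the file headers), and, as a value table, log10 ratios of Cy5 over Cy3, equal to the ratios of that software within 0.005. The number of arrays limits the precision.

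Background was corrected by normexp (offset 50), and each array was normalized by loess. A spot whose local background was over 5 times the median of its array took that median, which touched 0 member spots. Spots flagged as outliers were kept, 236 of 1647 for the members. Log2 ratios were averaged over spots of a probe and then over a gene's probes. A gene entered a fit if 3 or more of its arrays had a Cy5 spot well above background, and was tested with limma 3.58.1 (R 4.3.3, statmod 1.5.0, and version 1.17.8 of data.table), with Benjamini-Hochberg adjustment over all genes. Scripts were tested on simulated data. The metaplasia ages formed one fit of 12 arrays, the P7 genotypes another, and P7 with adult and the adult genotypes fits of 6. SAM was written anew, with all 20 label exchanges.

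The members and lists were chosen with earlier results of these data known. All members were named everywhere, and of the other pathway genes the called genes without overlap, up to the 6 of largest change in a comparison, of which some are printed. Chosen after seeing the data were the contrasts of Nrf2-/-Keap1-/- with Nrf2-/- and of the Keap1 effect with and without Nrf2, single probes of a gene, pathway and marker counts without the doubted arrays, and a Tlr4 probe named in the older annotation.

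Alternatives were no background subtraction, each spot's own background, processed signals, the deposited table, median centring, scale normalization, outlier spots left out, other filters, the brightest probe, other sets of arrays in the fit, a block for the replicate number, the slide, the scan or the software, a 2-fold minimum, SAM, and each array left out. Same-numbered arrays deviated together, with every correlation over 0.1, in 3 of 10 comparisons: P0 to P7 (0.121, 0.363 and 0.251), E11.5 to P7 (0.124, 0.188 and 0.127) and Nrf2-/-Keap1-/- against Keap1-/- (0.356, 0.22 and 0.123). The labels give no reason for a shared number.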

Additional observations from a re-analysis of the deposited data

Results flagged for a closer look

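The effect of losing Keap1 at P7 differed with and without Nrf2 for 3 of 10 members by a test of the difference itself, beside 15.1% of all genes called and 7.97% called lower, and for 1 member, Tlr2, without Keap1-/- replicate 3. Keap1-/- minus WT, less Nrf2-/-Keap1-/- minus Nrf2-/-, was -1.35 for Tlr2 (SE 0.178, adjusted p = 0.000789 by limma), -0.79 for Tlr3 (SE 0.207, adjusted p = 0.0274) and -1.01 for Tlr4 (SE 0.248, adjusted p = 0.0203). All 3 Keap1-/- arrays of Tlr2 and of Tlr4 lay below every array of the other P7 genotypes. The call of Tlr2 held in all 22 settings tried, that of Tlr4 in 21 of 23 and that of Tlr3 in 12 of 22. Keap1-/- arrays share a slide, scan and software version that no other P7 group has, so these cannot be told apart from the genotype. This contrast was added after seeing the data.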

How the results depend on the processing

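Of 3383 member values recomputed under the alternatives, 3192 kept their direction and their side of the threshold or, in 153 cases, turned sign while called in neither setting, 126 lost a call, 63 gained one and 2 reversed. The calls of Tlr2 held throughout except from P0 to P7 (20 of 29 settings). The calls kept in the smallest share of settings were Tlr1 from E15.5 to P0 (9 of 30), Il1rn from P7 to adult (7 of 23) and Tlr1 for Nrf2-/-Keap1-/- against Keap1-/- (12 of 28). The reversals were Il1rn from P7 to adult with each spot's own local background (-0.72, adjusted p = 0.215) and Nfkb1 in Nrf2-/-Keap1-/- against Keap1-/- with the brightest probe (0.71, adjusted p = 0.0121).

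Counts of members called moved as follows, with causes not tested. The share of all genes called under each setting is not given here or below. A count alone therefore does not set the members apart from other genes. From E11.5 to E15.5, 2 were called with both doubted arrays left out. From E15.5 to P0, 5 were called with each spot's own background. From P0 to P7, 0 were called with processed signals, the deposited table or slide as a random block, and 2 with all 27 arrays, with the compared groups alone, by SAM, or with both doubted arrays left out. From P7 to adult, 5 were called with processed signals or the deposited table, 6 by SAM and 1 at a 2-fold minimum. For Keap1-/- against WT, 5 were called without background subtraction, with median centring or with the brightest probe, and 7 by SAM. For Nrf2-/-Keap1-/- against Keap1-/-, 4 were called at a 2-fold minimum. With each spot's own background, 2 were called between adult genotypes and 3 for the Nrf2 effect in adults minus that at P7.

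With each array left out in turn, members called ranged from 0 to 0 from E11.5 to E15.5, 5 to 9 from E15.5 to P0, 0 to 2 from P0 to P7, 5 to 7 from E11.5 to P7, 2 to 4 from P7 to adult, 2 to 7 for Keap1-/- against WT, 5 to 7 for Nrf2-/-Keap1-/- against Keap1-/-, 0 to 1 in adults, 7 to 9 among the ages, 3 to 7 among the P7 genotypes and 1 to 3 for the dependence of the Keap1 effect on Nrf2. It stayed at 0 for Nrf2-/- and for Nrf2-/-Keap1-/- against WT at P7, for Nrf2-/-Keap1-/- against Nrf2-/-, and for the Nrf2 effect in adults minus that at P7.

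With the replicate number as a block, 9 members were called from E15.5 to P0, 3 from P7 to adult, 4 for Keap1-/- against WT and 6 for Nrf2-/-Keap1-/- against Keap1-/-. The block brought Tlr1 from P7 to adult (-0.61, adjusted p = 0.0456) and Nfkbia in Keap1-/- (0.62, adjusted p = 0.0499) past the threshold, took Il1rn from P7 to adult (adjusted p = 0.0615) and Tlr1 in Nrf2-/-Keap1-/- below it, and changed no other call of a member.

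With processed signals, Tlr3 differed by 1.90 from E15.5 to P0 without a call (adjusted p = 0.0785), and in Keap1-/- Tlr1 (-1.76, adjusted p = 0.00278) and Tlr3 (-1.26, adjusted p = 0.00933) were called while Il1a was not (-2.44, adjusted p = 0.0535). Differences between groups that are both near background were not measurable.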
